A study of Mus musculus with 6 samples.

Results

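Granulosa cells surround the oocyte in the ovarian follicle, and 5 genes tied to their identity and contacts, Foxl2, Nr5a2, Gja1, Serpine2 and Bex2, were followed by gene symbol in a count table of 51826 genes. Each of the 5 symbols has 1 row in the table. Ovarian RNA came from ICR mice, an outbred strain, in 3 groups of 2 libraries. The first group was the OHSS model given nintedanib (bibf1120), the second the OHSS model without the drug, and the third was named COH in the labels with no longer form. OHSS stands for ovarian hyperstimulation syndrome, in which hormone stimulation enlarges the ovary and makes its vessels leak, and nintedanib inhibits the kinases of the receptors for vascular endothelial, platelet-derived and fibroblast growth factors. The labels give no age, dose or time. They also do not say whether 2 libraries of 1 group are 2 animals, so p-values measure only the spread of these samples, and that spread may be technical.

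Granulosa cells make estrogen, feed the oocyte through gap junctions, and become luteal cells after ovulation. Foxl2 encodes a forkhead transcription factor that keeps these cells in their female state in mice, and its loss in the adult mouse ovary lets them take on features of Sertoli cells, their testicular counterpart. Nr5a2 encodes LRH-1, a nuclear receptor of granulosa and luteal cells that ovulation and luteal function need in mice. Gja1 encodes connexin 43, the main gap junction protein between granulosa cells. Serpine2 encodes protease nexin 1, a secreted inhibitor of thrombin, urokinase and plasmin. Bex2 belongs to a family of small X-linked genes. Gja1 and Serpine2 are also made by stromal and vascular cells, and in RNA from whole ovaries fewer granulosa cells and less RNA per cell cannot be told apart.

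Total counts ran from 28498435 to 34716751 per library, and mitochondrial transcripts took 5.88 and 5.72% of counts with nintedanib, 6.80 and 7.10% in OHSS and 5.21 and 5.96% in COH. Granulosa cell transcripts were present in every library: of 22 other granulosa cell genes, 22 had counts in each of the 6. Inha, the inhibin alpha subunit, stood at 3558 and 2879 CPM with nintedanib, 2293 and 2087 CPM in OHSS and 1961 and 2155 CPM in COH (CPM scales each gene's count to a library of one fixed size). Of 7 Sertoli cell genes, Dmrt1, a transcription factor of the testis, had 0 counts in each library. Sox9, which drives Sertoli cell formation, stayed between 2.25 and 3.57 CPM. Others of the list were higher, with Ptgds at 17.6 to 38.9 CPM, Dhh at 9.71 to 23.4 CPM and Cldn11 at 8.13 to 17.1 CPM. Sox8 stood at 1.41 to 3.12 CPM and Fgf9 at 0.20 to 1.25 CPM.

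The start regions of the 3 genes whose levels set groups apart most are shown first, as RefSeq gives them on GRCm38.p6 (250 bases before and 50 after the gene start, 5′ to 3′ along the gene). RefSeq start regions were found for 5 of the 5 genes, 6 in all since Nr5a2 has 2. Gja1 lies on the plus strand (chr10:56377050-56377349), and the Nr5a2 (chr1:136960399-136960698 and chr1:136953581-136953880) and Serpine2 (chr1:79858616-79858915) windows lie on the minus strand. Capitals mark the one match found among 3 motifs searched on both strands.
Gja1: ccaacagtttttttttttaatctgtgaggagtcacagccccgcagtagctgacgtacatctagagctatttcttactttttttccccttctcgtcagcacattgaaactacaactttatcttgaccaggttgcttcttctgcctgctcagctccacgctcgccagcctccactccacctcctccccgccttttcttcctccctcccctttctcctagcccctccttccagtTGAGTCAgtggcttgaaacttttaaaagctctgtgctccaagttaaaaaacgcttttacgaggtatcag
Nr5a2, first start: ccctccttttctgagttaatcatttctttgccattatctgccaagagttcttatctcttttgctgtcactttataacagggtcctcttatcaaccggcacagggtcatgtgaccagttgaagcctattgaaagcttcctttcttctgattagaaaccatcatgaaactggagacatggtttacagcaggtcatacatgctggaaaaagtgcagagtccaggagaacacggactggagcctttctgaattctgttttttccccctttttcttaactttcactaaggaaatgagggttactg
Nr5a2, second start: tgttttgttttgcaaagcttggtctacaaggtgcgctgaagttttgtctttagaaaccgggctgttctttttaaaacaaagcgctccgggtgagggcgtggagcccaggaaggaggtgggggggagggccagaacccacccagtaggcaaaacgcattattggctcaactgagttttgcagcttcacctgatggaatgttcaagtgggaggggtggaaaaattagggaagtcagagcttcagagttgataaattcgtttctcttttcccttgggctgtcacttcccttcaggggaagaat
Serpine2: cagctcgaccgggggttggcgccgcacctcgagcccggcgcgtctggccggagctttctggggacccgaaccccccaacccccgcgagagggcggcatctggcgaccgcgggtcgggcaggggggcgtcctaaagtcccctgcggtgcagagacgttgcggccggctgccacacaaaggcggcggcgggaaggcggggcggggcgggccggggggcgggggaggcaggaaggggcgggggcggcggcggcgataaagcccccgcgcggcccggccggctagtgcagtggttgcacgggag
The motifs were GTAAACA, a core bound by forkhead factors such as FOXL2, AAGGTCA, bound by NR5A receptors such as NR5A2, and TGANTCA, bound by AP-1, the dimer of Fos and Jun proteins. The Gja1 window held 1 AP-1 match, TGAGTCA, at base 232 of 300, which overlapped no other match, and the 5 other windows held none of the 3 motifs. Of 32851 start regions of this length, 3.65% held the forkhead core, 4.72% the NR5A core and 7.81% the AP-1 core. The GC content was 71.3% for Foxl2, 42.0 and 49.0% for Nr5a2, 47.7% for Gja1, 77.7% for Serpine2 and 56.3% for Bex2, where the median of all start regions was 52.7%.

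Gja1 was the gene of the 5 that separated the OHSS groups from COH, and it did so on the low side. It stood at 901.1 and 458.7 CPM with nintedanib, 367.3 and 933.6 CPM in OHSS and 1425 and 1543 CPM in COH. Each of the 4 OHSS libraries lay below both COH libraries, while the nintedanib and OHSS libraries lay among each other. The 2 libraries within a group were far apart where the gene was low, 1.96-fold with nintedanib and 2.54-fold in OHSS, against 1.08-fold in COH. Of all genes tested, 85.5% had a smaller gap between the nintedanib libraries and 93.3% a smaller gap between the OHSS libraries. Foxl2, the forkhead factor, was the steadiest of the 5, at 299.2 and 261.1 CPM with nintedanib, 240.3 and 236.1 CPM in OHSS and 281.0 and 246.8 CPM in COH. Its groups overlapped between nintedanib and COH. Both OHSS libraries lay below both COH libraries, by 1.03-fold at the nearest, as for 22.9% of all genes. They also lay below both nintedanib libraries, by 1.09-fold at the nearest, as for 19.2%.

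Nr5a2 and Serpine2 were highest with nintedanib. Nr5a2, the nuclear receptor, stood at 314.1 and 343.6 CPM with nintedanib, 164.4 and 227.8 CPM in OHSS and 207.4 and 178.1 CPM in COH. Serpine2, the protease inhibitor, stood at 351.9 and 409.1 CPM with nintedanib, 269.6 and 244.7 CPM in OHSS and 257.8 and 173.9 CPM in COH. For both genes the 2 nintedanib libraries lay above the 4 libraries without the drug, which overlapped among themselves. Bex2 was a low gene, at 1.94 and 3.33 CPM with nintedanib, 1.45 and 2.24 CPM in OHSS and 2.30 and 1.96 CPM in COH. All of its groups overlapped, and it rests on 45 to 107 counts per library, with a counting error of 13.7 to 21.1% when 2 counts are taken as 1 read pair, against at most 2.01% for the other 4 genes.

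**Figure D1:**
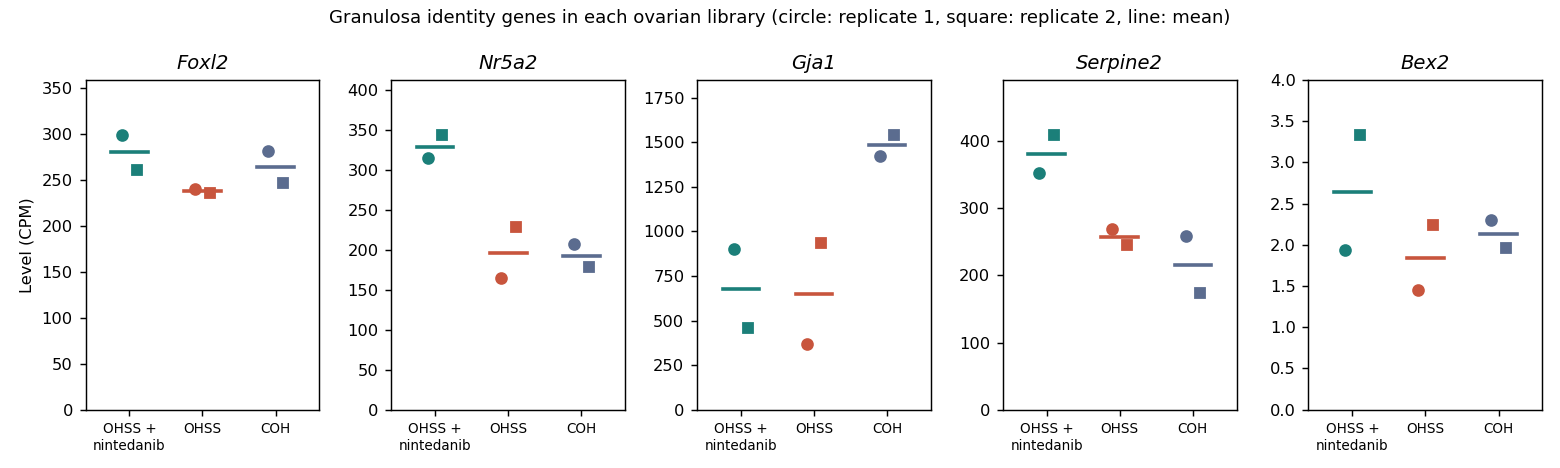
Level of each of the 5 genes in CPM (vertical axes, each from 0) in the 2 libraries of OHSS with nintedanib, OHSS and COH; circles are replicate 1, squares replicate 2 and lines group means. Gja1 lies at 1425 and 1543 CPM in COH and between 367.3 and 933.6 CPM in the 4 OHSS libraries, and Nr5a2 and Serpine2 lie highest in the 2 nintedanib libraries.

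Set against exonic length, the order of the genes differed between groups. With nintedanib Foxl2 came first at 86.0 ± 8.27 CPM per kilobase of exon, followed by Gja1 at 66.3 ± 30.5, Nr5a2 at 55.7 ± 3.54, Serpine2 at 45.9 ± 4.88 and Bex2 at 2.92 ± 1.09 (SD, n = 2). In OHSS the levels per kilobase were 73.2 ± 0.910 for Foxl2, 63.4 ± 39.0 for Gja1, 33.2 ± 7.60 for Nr5a2, 31.0 ± 2.12 for Serpine2 and 2.04 ± 0.624 for Bex2. In COH Gja1 came first at 144.7 ± 8.11, ahead of Foxl2 at 81.1 ± 7.42, Nr5a2 at 32.7 ± 3.51, Serpine2 at 26.0 ± 7.16 and Bex2 at 2.36 ± 0.269. Gja1 and Foxl2 differed by more than their spread in COH but not in either OHSS group, where Gja1 also lay within its spread of Nr5a2. Nr5a2 and Serpine2 were neighbours within their spread in OHSS and COH, and Bex2 was lowest in the 3 groups. The lengths, from 903 bases for Bex2 to 10257 for Gja1, are GENCODE M21 exon unions and may differ from those counted.

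The comparison of OHSS with COH asks how these genes differ in the syndrome model. Gja1 averaged 650 ± 400 CPM in OHSS against 1484 ± 83.2 CPM in COH (SD, n = 2), and the log2 fold change was -1.19 (SE 0.515, 95% interval -2.48 to 0.10), which was not called (edgeR adjusted p = 0.596, unadjusted p = 0.065). Foxl2 averaged 238 ± 2.97 CPM in OHSS against 264 ± 24.2 CPM in COH, a log2 fold change of -0.15 (interval -0.45 to 0.15). Nr5a2, Serpine2 and Bex2 had log2 fold changes of 0.02 (interval -0.44 to 0.49), 0.25 (-0.27 to 0.78) and -0.21 (-1.24 to 0.82). Of the 5 genes 0 were called by edgeR at an adjusted p below 0.05, where 0.0105% of 19027 genes were, and 0 had an unadjusted p under 0.05, which 4.59% of all genes had on the higher side and 4.24% on the lower. DESeq2, which called 2.19% of the genes it gave an adjusted p, and limma voom, which called 0 of all genes tested, called 0 of the 5. Both OHSS libraries lay below both COH libraries for 2 genes, Foxl2 and Gja1, as they did for 22.9% of all genes, and above them for 0, against 21.2%. The median log2 fold change was -0.15 for the 5 genes and -0.0030 for all genes tested. With OHSS replicate 1 left out the Gja1 value was -0.65, and with OHSS replicate 2 left out it was -2.02. Nr5a2 turned to -0.08 without COH replicate 2 and -0.24 without OHSS replicate 2, Serpine2 to -0.00083 without COH replicate 2 and Bex2 to 0.09 without OHSS replicate 1, and with scaling by library size alone Nr5a2 stood at -0.04.

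OHSS with nintedanib set against OHSS asks how the genes differ with the drug in the model. Each of the 5 genes had a higher mean with nintedanib. Nr5a2 averaged 329 ± 20.9 CPM with nintedanib and 196 ± 44.9 CPM in OHSS (SD, n = 2), and the log2 fold change was 0.75 (SE 0.185, 95% interval 0.28 to 1.21), with an unadjusted p of 0.00846 and an edgeR adjusted p of 0.653. Serpine2 averaged 380 ± 40.5 CPM with nintedanib and 257 ± 17.5 CPM in OHSS, a log2 fold change of 0.57 (SE 0.209, interval 0.04 to 1.09, unadjusted p = 0.039, edgeR adjusted p = 0.654). Foxl2 and Bex2 had log2 fold changes of 0.23 (interval -0.07 to 0.54) and 0.52 (-0.51 to 1.54). For Gja1 the value was 0.06 with an interval of -1.21 to 1.34, which spans folds of 0.431 to 2.53, and it turned to -0.47 without OHSS replicate 1 and to -0.51 without nintedanib replicate 1. Of the 5 genes 0 were called by edgeR, where 0.00526% of all genes were, and by DESeq2, where 1.27% were. Limma voom, which called 1 of all genes tested, called 0 of the 5. An unadjusted p under 0.05 with a higher level was found for 2 of the 5 and for 3.95% of all genes, and with a lower level for 0 and 3.47%. The nintedanib libraries lay above both OHSS libraries for 3 genes, Foxl2, Nr5a2 and Serpine2, as they did for 19.2% of all genes, and below them for 0, against 16.9%. The median log2 fold change was 0.52 for the 5 genes, which is the value of the low gene Bex2, and 0.010 for all genes tested. Without nintedanib replicate 2 the Bex2 value was 0.075.

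OHSS with nintedanib set against COH combines model and drug, and it shares the nintedanib libraries with the last comparison and the COH libraries with the first. Serpine2 averaged 380 ± 40.5 CPM with nintedanib and 216 ± 59.3 CPM in COH (SD, n = 2), and the log2 fold change was 0.82 (SE 0.209, 95% interval 0.29 to 1.34, unadjusted p = 0.00971, edgeR adjusted p = 0.474). Nr5a2 averaged 329 ± 20.9 CPM with nintedanib and 193 ± 20.7 CPM in COH, a log2 fold change of 0.77 (SE 0.185, interval 0.31 to 1.24, unadjusted p = 0.00737, edgeR adjusted p = 0.461). DESeq2 called both, at adjusted p = 0.0350 for Serpine2 and 0.0293 for Nr5a2, and it called 2.73% of the genes it gave an adjusted p. EdgeR, which called 0.0263% of all genes, and limma voom, which called 2 of all genes tested, called 0 of the 5. Gja1 averaged 680 ± 313 CPM with nintedanib and 1484 ± 83.2 CPM in COH, a log2 fold change of -1.13 (SE 0.515, interval -2.42 to 0.17, unadjusted p = 0.0761, edgeR adjusted p = 0.540), which was -1.70 without nintedanib replicate 1 and -0.72 without nintedanib replicate 2. Foxl2 and Bex2 had log2 fold changes of 0.09 (interval -0.21 to 0.39) and 0.31 (-0.71 to 1.33), and turned to -0.0088 for Foxl2 without COH replicate 2, -0.02 for Foxl2 without nintedanib replicate 1 and -0.14 for Bex2 without nintedanib replicate 2. The groups did not overlap for 2 genes on the higher side, Nr5a2 and Serpine2, as for 22.3% of all genes, and for 1 on the lower side, Gja1, as for 22.7%. An unadjusted p under 0.05 with a higher level was found for 2 of the 5 and for 5.62% of all genes, and with a lower level for 0 and 4.08%. The median log2 fold change was 0.31 for the 5 genes, which is again the value of Bex2, and -0.00099 for all genes tested.

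**Figure D2:**
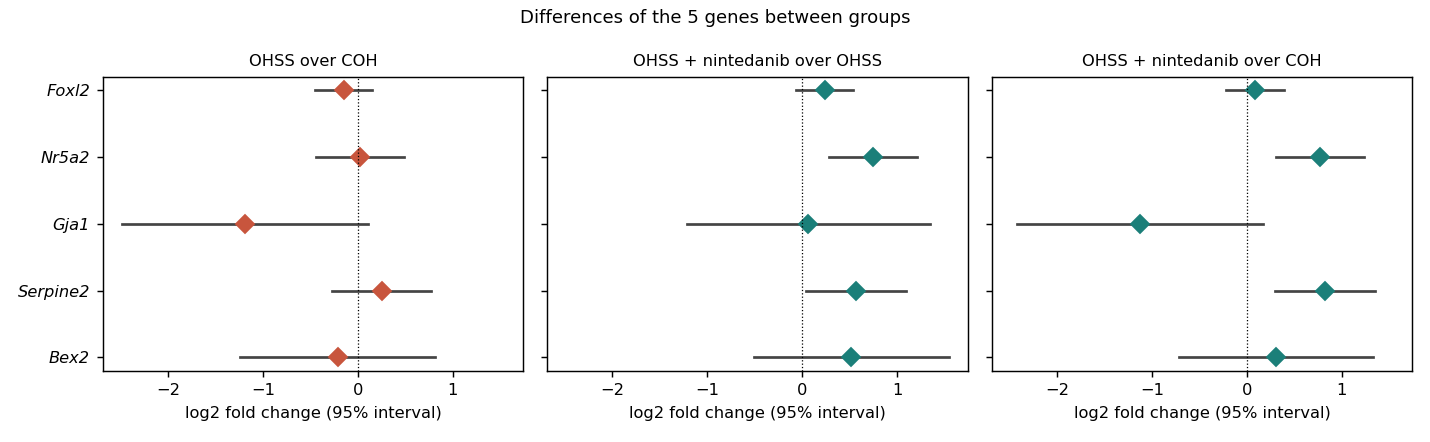
Log2 fold change of each of the 5 genes (diamonds, horizontal axis) with its 95% interval (lines) in OHSS over COH, OHSS with nintedanib over OHSS, and OHSS with nintedanib over COH. The intervals of Nr5a2 and Serpine2 lie above 0 in both comparisons with nintedanib, at 0.75 and 0.57 over OHSS and at 0.77 and 0.82 over COH, and the Gja1 intervals are the widest.

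Since the Gja1 values of both OHSS groups lay in one range, and so did the Nr5a2 and Serpine2 values of both groups without the drug, 2 further contrasts of the same fit were chosen after these values were seen. Their p-values come from the values that led to this choice and are a description only. Over both OHSS groups Gja1 averaged 665 CPM, against 1484 CPM in COH, and the log2 fold change was -1.16 (SE 0.426, 95% interval -2.23 to -0.09, unadjusted p = 0.0386, edgeR adjusted p = 0.475). The lowest COH library was 1.53-fold above the highest of the 4 OHSS libraries, and such a gap on the lower side, of any size, was found for 11.3% of all genes, and on the higher side for 0 of the 5 and 10.9%. With nintedanib Nr5a2 averaged 329 CPM, against 194 CPM over both groups without the drug, and the log2 fold change was 0.76 (SE 0.155, interval 0.37 to 1.15, unadjusted p = 0.00367, edgeR adjusted p = 0.460). Serpine2 averaged 380 CPM with nintedanib, against 236 CPM without it, and the log2 fold change was 0.69 (SE 0.176, interval 0.25 to 1.13, unadjusted p = 0.00951, edgeR adjusted p = 0.507). The lowest nintedanib library lay above the highest of the 4 others by 1.38-fold for Nr5a2 and 1.31-fold for Serpine2, with such a gap on the higher side in 8.88% of all genes, and on the lower side in 0 of the 5 and 7.82%. In the first contrast an unadjusted p under 0.05 was found for 1 of the 5 on the higher side, Serpine2, and 5.25% of all genes, and for 1 on the lower side, Gja1, and 4.92%. In the second it was found for 2 on the higher side and 5.49% of all genes, and for 0 on the lower side and 3.27%. In both contrasts edgeR and limma voom called 0 of the 5. Of all genes edgeR called 0.021 and 0.0158%, and limma voom called 0 and 1 genes. DESeq2 called 0 of the 5 in the first, where it called 2.93% of genes, and 1, Nr5a2, in the second (adjusted p = 0.0113), where it called 1.92%.

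The other granulosa cell genes give the setting of these values. Of all genes tested, edgeR called 2 in OHSS over COH, 1 with nintedanib over OHSS and 5 with nintedanib over COH. In that order limma voom called 0, 1 and 2. With so few calls, a count of 0 in this or a later list says little about its genes. With nintedanib against OHSS, 17 of 22 had higher means and 5 lower, with a median log2 fold change of 0.43, and 0 were called by edgeR or limma voom. An unadjusted p under 0.05 was found for 7 on the higher side, against 3.95% of all genes, and for 1 on the lower, against 3.47%, and DESeq2 called 2, against 1.27%. Amhr2, the receptor of anti-Müllerian hormone, stood at 88.9 ± 6.44 CPM with nintedanib and 60.0 ± 0.279 CPM in OHSS (log2 0.57, SE 0.116), Inha at 3218 ± 480 against 2190 ± 145 CPM (0.56, SE 0.158) and Inhba, the activin A subunit, at 716 ± 251 against 330 ± 83.9 CPM (1.12, SE 0.309). Wt1, a transcription factor of early granulosa cells, ran the other way at 37.8 ± 4.34 CPM with nintedanib and 64.4 ± 3.72 CPM in OHSS (-0.77, SE 0.147). With nintedanib against COH, 15 of 22 were higher and 7 lower (median 0.31), with 0 called by edgeR or limma voom. An unadjusted p under 0.05 was found for 9 on the higher side, against 5.62% of all genes, and for 0 on the lower, against 4.08%, and DESeq2 called 5, against 2.73%. Inhba had 716 ± 251 against 165 ± 28.7 CPM (log2 2.11, SE 0.318), and the aromatase gene Cyp19a1, whose product makes estrogen, had 91.9 ± 42.1 against 22.6 ± 6.84 CPM (2.02, SE 0.376).

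Between OHSS and COH the other granulosa cell genes had 14 of 22 higher and 8 lower (median 0.09), with 0 called by edgeR or limma voom. An unadjusted p under 0.05 was found for 2 in each direction, against 4.59% of all genes higher and 4.24% lower, and DESeq2 called 2, against 2.19%. Wt1 stood at 64.4 ± 3.72 CPM in OHSS against 35.1 ± 4.42 CPM in COH (log2 0.88, SE 0.148), Amhr2 at 60.0 ± 0.279 against 85.8 ± 7.85 CPM (-0.52, SE 0.116) and Amh, anti-Müllerian hormone of growing follicles, at 88.7 ± 13.1 against 149 ± 40.5 CPM (-0.75, SE 0.224). Nr5a1, the paralog of Nr5a2 that encodes SF-1, stood at 402.6 and 373.3 CPM with nintedanib, 423.4 and 309.0 CPM in OHSS and 333.6 and 366.3 CPM in COH, and its OHSS libraries overlapped both other groups while the nintedanib libraries lay above the COH libraries. Fshr, the receptor of follicle-stimulating hormone, stood at 17.2 and 53.5 CPM with nintedanib, 13.6 and 18.9 CPM in OHSS and 15.4 and 8.76 CPM in COH. The summed level of the 22 genes was 6112 and 6341 CPM with nintedanib, 4324 and 4379 CPM in OHSS and 4014 and 3960 CPM in COH. Inha and Inhba carry most of that sum, and without them the other 20 genes came to 2015 and 2568 CPM with nintedanib, 1760 and 1902 CPM in OHSS and 1867 and 1660 CPM in COH.

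**Figure D3:**
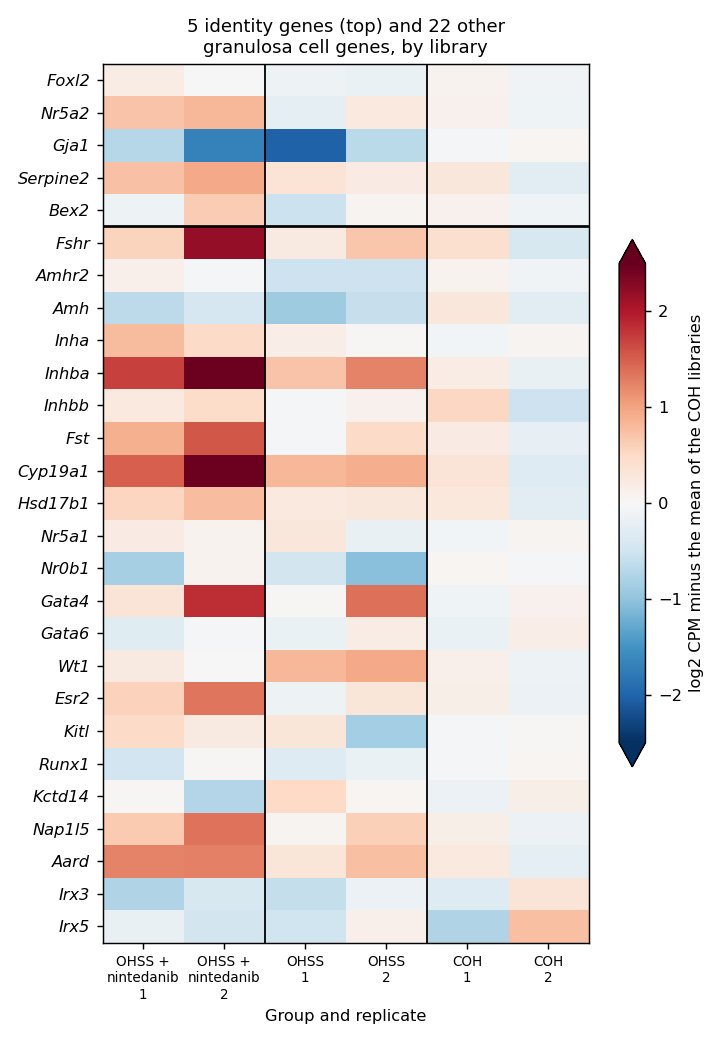
Log2 CPM minus the mean of the 2 COH libraries (colour, red higher and blue lower) for the 5 genes, above the black line, and 22 other granulosa cell genes, by library of OHSS with nintedanib, OHSS and COH. Gja1 is blue in the 4 OHSS libraries, from -0.67 to -2.01, and Inhba and Cyp19a1 are red in both OHSS groups.

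Each member was also read relative to the mean log2 level of those 22 genes. Relative to these genes and to COH, Gja1 stood at -1.03 and -2.35 with nintedanib, -2.05 and -0.88 in OHSS and -0.11 and 0.11 in COH on the log2 scale. In each of the 4 OHSS libraries this lay farther below COH than the log2 level of Gja1 itself, which ran from -2.01 to -0.67. The mean of the 22 genes lay above COH in these libraries, so any gene moves down on this scale. In nintedanib replicate 2 Cyp19a1 (2.46), Inhba (2.44), Fshr (2.20) and Gata4 (1.85) lifted that mean most, while the median of the 22 genes was 0.34 above COH. Nr5a2 stood at 0.39 and 0.18 with nintedanib, where its own log2 level was 0.71 and 0.84 above COH, at -0.26 and 0.04 in OHSS and at 0.05 and -0.05 in COH. Serpine2 stood at 0.42 and 0.29 with nintedanib, 0.31 and 0.00054 in OHSS and 0.23 and -0.23 in COH, so that on this relative scale the nintedanib libraries no longer lay above both OHSS libraries. Foxl2 stood at -0.13 and -0.67 with nintedanib and -0.17 and -0.37 in OHSS, below both COH libraries at 0.04 and -0.04. Bex2 stood at -0.44 and -0.03 with nintedanib, -0.57 and -0.13 in OHSS and 0.06 and -0.06 in COH.

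Genes with a known tie to each member were read as lists. For Foxl2 the list was of Sertoli cell genes, of which 6 of 7 were tested, and 3 were higher and 3 lower in OHSS against COH (median -0.21), 3 and 3 with nintedanib against OHSS (0.32) and 4 and 2 with nintedanib against COH (0.29), with 0 called by edgeR or limma voom and 0, 1 and 0 by DESeq2. In this and the next lists, counts of an unadjusted p under 0.05 stand against 4.59, 3.95 and 5.62% of all genes on the higher side and 4.24, 3.47 and 4.08% on the lower in these 3 comparisons, and DESeq2 calls against 2.19, 1.27 and 2.73%. An unadjusted p under 0.05 was found for 0, 1 and 1 of the Sertoli genes on the higher side and 1, 0 and 0 on the lower. Dhh, a hedgehog ligand that granulosa cells also make, stood at 21.4 ± 2.89 CPM with nintedanib, 10.8 ± 1.56 CPM in OHSS and 15.0 ± 1.18 CPM in COH, and the log2 fold change was 0.98 (SE 0.184) over OHSS. Foxl2os, the RNA opposite Foxl2, shares 12 exonic bases with it and stood at 93.3 and 81.8 CPM with nintedanib, 82.0 and 77.7 CPM in OHSS and 72.4 and 61.3 CPM in COH. The use of strand in counting is not given, so Foxl2 and Foxl2os reads in that stretch cannot be told apart.

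Of the genes that NR5A2 acts on in follicles, 10 of 11 were tested. In OHSS against COH 9 were higher and 1 lower (median 0.63), with nintedanib against OHSS 4 higher and 6 lower (-0.23), and with nintedanib against COH 7 higher and 3 lower (0.25). Unadjusted p under 0.05 was found for 2, 1 and 3 of them on the higher side and 0, 1 and 0 on the lower, edgeR and limma voom called 0 in each, and DESeq2 called 1, 0 and 1. Star, which carries cholesterol into mitochondria, stood at 1726 ± 343 CPM with nintedanib, 2059 ± 938 CPM in OHSS and 878 ± 20.9 CPM in COH. Sfrp4, a secreted Wnt-binding protein of luteal cells, stood at 3361 ± 385 CPM with nintedanib, 6837 ± 2700 CPM in OHSS and 4004 ± 304 CPM in COH (log2 -1.02, SE 0.296, nintedanib over OHSS). Cyp19a1, aromatase, was highest in the same libraries as Nr5a2, with 62.1 and 121.6 CPM in the nintedanib libraries, against 39.0 and 41.5 CPM in OHSS and 27.4 and 17.8 CPM in COH. Star and Sfrp4, which also stand in the luteal list, had their highest means in OHSS, where Nr5a2 did not. For Star that mean rests on OHSS replicate 1, at 2722 CPM. Its OHSS replicate 2, at 1396 CPM, lay below both nintedanib libraries, at 1484 and 1968 CPM.

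Of 19 other connexin genes, 7 passed the filter on low counts and 12 did not. In OHSS against COH 3 of the 7 were higher and 4 lower (median -0.25), with nintedanib against OHSS 5 and 2 (0.12), and with nintedanib against COH 3 and 4 (-0.04). EdgeR and limma voom called 0 in each, unadjusted p under 0.05 was found for 0, 1 and 1 on the higher side and 0 on the lower, and DESeq2 called 0, 0 and 1. Gja4, connexin 37 of oocyte and endothelial junctions, stood at 32.3 and 32.9 CPM with nintedanib, 27.9 and 28.3 CPM in OHSS and 35.1 and 32.0 CPM in COH (log2 -0.25, SE 0.112, OHSS over COH). Its OHSS libraries lay below both COH libraries, as for 22.9% of all genes, and below both nintedanib libraries, as for 19.2%. Gja5, connexin 40 of arterial endothelium, stood at 10.98 ± 1.25 CPM with nintedanib, 5.90 ± 0.846 CPM in OHSS and 5.51 ± 0.711 CPM in COH. Per kilobase of exon, Gja1 stood at 144.7 ± 8.11 CPM and Gja4 at 19.9 ± 1.31 CPM in COH (SD, n = 2).

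Serpine2 stands among proteases and inhibitors that act on fibrin and matrix. Of 12 such genes 9 were tested, with 6 higher and 3 lower in OHSS against COH (median 0.29), 4 and 5 with nintedanib against OHSS (-0.02) and 4 and 5 with nintedanib against COH (-0.08). EdgeR and limma voom called 0 in each, unadjusted p under 0.05 was found for 2, 0 and 0 on the higher side and 0, 2 and 1 on the lower, and DESeq2 called 1, 0 and 0. Plau, the urokinase that Serpine2 inhibits, stood at 126.9 and 109.2 CPM with nintedanib, 274.4 and 159.8 CPM in OHSS and 142.5 and 122.9 CPM in COH. Plat, tissue plasminogen activator, stood at 75.3 and 78.6 CPM with nintedanib, 97.4 and 83.2 CPM in OHSS and 103.2 and 106.4 CPM in COH. Both activators had their lowest mean in the nintedanib group, with log2 fold changes of -0.88 (SE 0.269) for Plau over OHSS and -0.45 (SE 0.114) for Plat over COH. The references differ: the nintedanib and COH libraries of Plau overlapped, and both OHSS libraries of Plat already lay below both COH libraries. Lrp1, an uptake receptor for complexes of protease and inhibitor, stood at 722 ± 116 CPM with nintedanib, 1134 ± 161 CPM in OHSS and 697 ± 35.1 CPM in COH.

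Of 11 genes of the Bex and Tceal family 9 were tested, with 7 higher and 2 lower in OHSS against COH (median 0.07), 6 and 3 with nintedanib against OHSS (0.06) and 6 and 3 with nintedanib against COH (0.04). EdgeR and limma voom called 0 in each, unadjusted p under 0.05 was found for 0, 2 and 2 on the higher side and 0 on the lower, and DESeq2 called 0, 1 and 2. Bex1, the closest relative of Bex2, stood at 21.7 and 19.5 CPM with nintedanib, 10.96 and 8.68 CPM in OHSS and 8.99 and 10.02 CPM in COH, a log2 fold change of 1.07 (SE 0.182) over OHSS and 1.12 (SE 0.183) over COH. Bex4 stood at 76.2 ± 23.7 CPM with nintedanib, 36.9 ± 10.9 CPM in OHSS and 32.1 ± 7.08 CPM in COH. Of the 804 windows of 100 bases in Bex2 transcripts, 70 also occur in Bex1 or Bex3, which is 8.71%, so the Bex2 level is uncertain, while the other 4 genes share 0 such windows with other annotated transcripts.

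Lists for other cells of the ovary are given beside these values, and their part in the results was not tested. For the endothelium 8 of 8 genes were higher with nintedanib than in OHSS, with a summed level of 659 to 674 CPM against 511 to 546 CPM, and 614 to 619 CPM in COH. For macrophages 8 of 8 were lower with nintedanib than in OHSS, with 287 to 327 CPM against 368 to 541 CPM, and 494 to 541 CPM in COH. Of the same 8 genes 6 were higher in OHSS than in COH (median 0.15), while Lyz2, lysozyme of macrophages and the gene of this list with the smallest p, stood at 82.2 and 50.7 CPM with nintedanib, 166.7 and 137.4 CPM in OHSS and 239.5 and 262.1 CPM in COH. Without it the sums were 237 to 244 CPM with nintedanib, 231 to 374 CPM in OHSS and 255 to 279 CPM in COH. Oocyte genes were lower in OHSS than in COH for 10 of 10, with 209 to 373 CPM with nintedanib, 206 to 254 CPM in OHSS and 273 to 371 CPM in COH, and surface epithelium genes for 8 of 8, with 36.6 to 80.3, 43.5 to 71.5 and 63.5 to 111 CPM. Stromal genes were lower in OHSS than in COH for 7 of 8, with sums of 3028 to 3211, 2640 to 3638 and 3433 to 3496 CPM in the same order. Luteal genes were higher in OHSS than in COH for 7 of 9, with 15707 to 17015 CPM with nintedanib, 19670 to 23419 CPM in OHSS and 15393 to 17214 CPM in COH. Theca genes had 4 of 7 higher with nintedanib than in OHSS, with 2818 to 4685, 2380 to 3081 and 1782 to 2678 CPM, and pericyte and smooth muscle genes 2 of 8, with 1385 to 1645, 1577 to 1634 and 1446 to 1519 CPM. EdgeR and limma voom called 0 genes of these lists in the 3 comparisons, and 0 of these genes were at 0 counts in a library. DESeq2 called from 0 to 2 a list. It called 2.19% of all genes in OHSS over COH, 1.27% with nintedanib over OHSS and 2.73% with nintedanib over COH. The list with 2 was the endothelium, with nintedanib over OHSS. There 4 of the 8 had an edgeR unadjusted p under 0.05 on the higher side, against 3.95% of all genes. On the lower side it was 0, against 3.47%. Elsewhere in these lists such a p was found for 0 to 2 genes in each direction, against 3.47 to 5.62% of all genes.

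**Figure D4:**
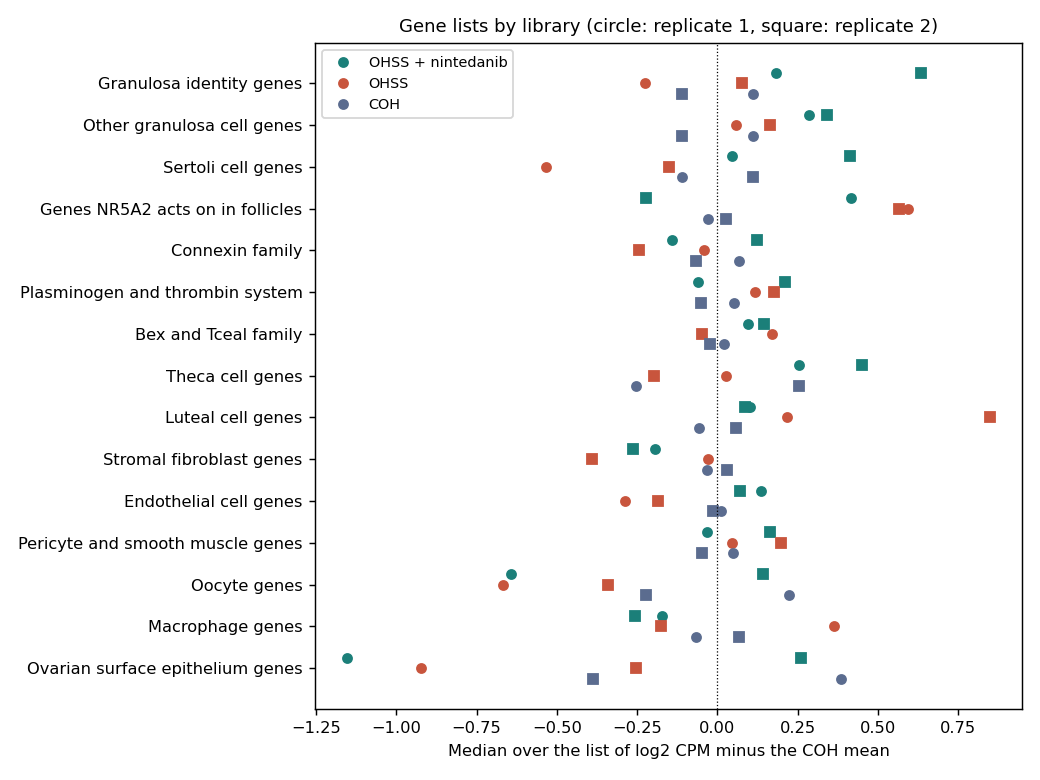
Median over each gene list of log2 CPM minus the COH mean (horizontal axis), by library of OHSS with nintedanib, OHSS and COH; circles are replicate 1 and squares replicate 2. The 2 nintedanib libraries lie highest for the other granulosa cell genes, and also for the granulosa identity, theca and endothelial genes. The libraries of a group lie far apart for oocyte and surface epithelium genes.

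The genes whose log2 CPM ran most like each member over the 6 libraries were taken from 11502 candidates with a mean of at least 5 CPM (11503 for Bex2), and the measure is Pearson's r, given as a description. For Gja1 they were Parvb (r = 0.996), Vps26b (0.991) and Fam173b (0.989), and 51 candidates passed 0.95. Parvb, the adhesion protein beta-parvin, stood at 73.8 and 48.5 CPM with nintedanib, 46.7 and 72.0 CPM in OHSS and 91.6 and 97.0 CPM in COH. For Nr5a2 they were Rnf169 (0.990), Trim33 (0.988) and Fryl (0.982), for Serpine2 Nup153 (0.998), Ift172 (0.991) and Cdt1 (0.991), for Foxl2 Ift140 (0.997), Gemin6 (0.988) and Map2k6 (0.984), and for Bex2 Tnni3 (0.992), Nup54 (0.991) and Anxa1 (0.986). Between 20 and 57 candidates passed 0.95 for each member, and no member was among the nearest 3 of another. Between members r was highest for Nr5a2 and Serpine2 (0.82) and lowest for Gja1 and Serpine2 (-0.61). All these values share the same 6 libraries, and with so few libraries and 11502 candidates an r above 0.95 can arise between unrelated genes.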

How the data were processed

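Bulk RNA-seq of 6 mouse ovary libraries was read from a table of raw counts per Ensembl gene ID, deposited by the authors with whole numbers that differ in total between libraries. The submitters' processing notes list, with no roles, the build mm8 and the tools StringTie 1.3.3b, HISAT2 2.1.0 and Trimmomatic 0.36. The counting program, annotation and strand setting were not given in the sources used here. The counts come to 72.1 to 74.0% of the reads in the deposited read summaries and 144 to 148% of the pairs, so a pair appears to count as 2. Groups came from the sample titles. Genes were filtered with filterByExpr, which left 19027 with the 5 members among them, and scaled with TMM in edgeR 4.0.16 (R 4.3.3). Groups were compared by the quasi-likelihood test of edgeR (two-sided), all 3 groups sharing 1 fit, with 3 residual and 2.41 prior degrees of freedom and Benjamini-Hochberg adjustment over all genes at 0.05. Standard errors came from the F statistic, and intervals are at 95%. With 2 libraries on each side the smallest exact permutation p is 0.333 (two-sided), and no such test was run.

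Alternatives were RLE, upper quartile and library size scaling, no filter or a mean of at least 1 CPM, DESeq2 1.42.0, limma voom 3.58.1, a replicate block, a robust prior, only the 2 groups compared, and each library left out. The 5 members were named in every comparison, with up to 4 genes of smallest p per list, 11 further genes such as Fshr, and the 3 genes most like each member by Pearson's r of log2 CPM (prior count 2). One gene that this rule names is not reported here. The members and lists were chosen with earlier results of these data known. The 2 pooled contrasts and the sums without Inha, Inhba and Lyz2 were chosen after the data had been seen. The fit was also run on simulated counts. These used the trend of spread with level and not each gene's own spread, and no result here rests on them.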

Additional observations from a re-analysis of the deposited data

How the results depend on the processing

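Of the 25 log2 fold changes of the 5 genes (5 contrasts), 16 kept their sign under the alternatives run. Over 390 recomputed values 370 kept sign and call, 17 turned sign without being called and 3 became called, which were Nr5a2 and Serpine2 with nintedanib over COH by DESeq2 (0.78 and 0.82, adjusted p = 0.0293 and 0.0350) and Nr5a2 with nintedanib over both groups without the drug by DESeq2 (0.75, adjusted p = 0.0113). DESeq2 thus called 2 and 1 of the 5 genes there, where edgeR called 0. The pooled contrast was chosen after the values had been seen. It uses the same nintedanib libraries, so its call is not separate from the other 2. Gja1 kept its negative sign against COH throughout.

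Sign turns in OHSS over COH were Nr5a2 at -0.036 with library size scaling, and in the range with each library left out Nr5a2 from -0.24 to 0.26, Serpine2 from -0.00083 to 0.56 and Bex2 from -0.57 to 0.086. With nintedanib over OHSS, Gja1 ranged from -0.51 to 0.89. With nintedanib over COH, Foxl2 ranged from -0.019 to 0.18 and Bex2 from -0.14 to 0.64. Over both OHSS groups against COH, Foxl2 ranged from -0.12 to 0.065 and Bex2 from -0.17 to 0.21, and with nintedanib over both groups without the drug Bex2 ranged from -0.030 to 0.74. The cause was not tested.

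The number of genes called over the whole table was 2 in OHSS against COH, 1 with nintedanib against OHSS, 5 with nintedanib against COH, 4 for both OHSS groups against COH and 3 with nintedanib against both groups without the drug. In that order DESeq2 called 360, 223, 449, 482 and 302, and limma voom 0, 1, 2, 0 and 1. Without a filter the first 2 became 4 and 2, and with only the 2 groups compared the first 3 became 0, 0 and 2. With a replicate block the first 4 were 1, 0, 2 and 2, and Bex2 in both OHSS groups against COH was -0.012. The block changed no call among the 5 genes. Libraries with the same number deviated from their group means with correlations of -0.0023 to 0.048. With 2 libraries a group the 2 deviations mirror each other, so these values cannot show whether such libraries share a batch. With each library left out the counts ran from 0 to 2, 0 to 30, 0 to 53, 0 to 6 and 0 to 71, with 0 in each without either COH library. The values 30, 53 and 71 came without nintedanib replicate 1. Medians of the other lists moved by more than the spread between replicates in 71 recomputed values and by less in 1021.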
